A study of Saccharomyces cerevisiae with 12 samples.

Results

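The 10 genes described here encode glycolytic enzymes of the budding yeast *Saccharomyces cerevisiae*: the phosphofructokinase subunits *PFK1* (YGR240C) and *PFK2* (YMR205C), the aldolase *FBA1* (YKL060C), the glyceraldehyde-3-phosphate dehydrogenases *TDH1* (YJL052W), *TDH2* (YJR009C) and *TDH3* (YGR192C), the phosphoglycerate kinase *PGK1* (YCR012W), the phosphoglycerate mutase *GPM1* (YKL152C) and the enolases *ENO1* (YGR254W) and *ENO2* (YHR174W). They were taken by their systematic gene identifiers, not by their values, and are 10 of the 7123 genes in the count table. All 10 passed the filter of at least 10 reads over all libraries, which left 6490 genes. Poly(A) transcripts were measured by RNA-seq in 12 libraries of 4 groups, with 3 replicates each. The groups were *rad30Δ* cells after induction of a DNA double-strand break (*rad30Δ* DSB), *rad30Δ* cells in G2/M (*rad30Δ* G2/M), wild type cells after break induction (WT DSB) and wild type cells in G2/M (WT G2/M). *RAD30* encodes DNA polymerase η, a translesion polymerase that copies past damaged bases. All cultures were W303 cells in 2% raffinose that were held in G2/M with 80 µg/ml benomyl for 3 h, and the DSB groups then received 2% galactose for 1 h. Galactose turned on the HO endonuclease, which cuts the *MAT* locus on chromosome III, from the *GAL* promoter. In the study's strain list, some HO strains of each genotype also carry a temperature-sensitive *smc1* allele, a second *SMC1* copy tagged with MYC under the same promoter, and a tetR-GFP marked tetO array, while others do not, and the labels do not say which strains were sequenced. *SMC1* lay at 3474 to 5730 CPM (gene reads scaled to a common library size with TMM normalization factors) in the 6 DSB libraries, against 147 to 190 CPM in the 6 G2/M libraries. This rise was present in both genotypes, as for strains that carry the *SMC1* copy under the *GAL* promoter. In the strain list, every HO strain of these genotypes with that copy also carries the temperature-sensitive allele and the array. Neither galactose without a break nor a further 1 h without galactose was in any library. In both DSB comparisons the sugar, the higher *SMC1*, the break and the further 1 h therefore cannot be told apart.

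Glycolysis splits a hexose into triose phosphates and converts these to pyruvate, with a net gain of ATP and NADH. Phosphofructokinase catalyses the committed upper step and aldolase the split, while the enzymes from glyceraldehyde-3-phosphate dehydrogenase to enolase form the lower, reversible stretch that gluconeogenesis shares. In budding yeast these transcripts are among the most abundant of the cell, several steps have a pair or more of paralogous genes, and Rap1, Gcr1 and Gcr2 are the activators known for the family. Raffinose and galactose are both used more slowly than glucose, and galactose enters the pathway above phosphofructokinase through the Leloir enzymes.

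The libraries held 5442935 to 7289514 reads assigned to genes. *RAD30* had 0 reads in all 6 *rad30Δ* libraries and 229 to 350 in the wild type libraries. *HO* lay at 3693 to 4761 CPM in the 6 DSB libraries, against 35.7 to 42.8 CPM in the 6 G2/M libraries. The strains also differed in mating type genes, so that *RAD30* and the rest of the strain background cannot be told apart. *STE3* and *MF(ALPHA)1*, marks of α cells, were higher in every *rad30Δ* library than in every wild type library, while *STE2*, a mark of **a** cells, was at 13.4 to 19.9 CPM in the *rad30Δ* libraries and 376 to 596 CPM in the wild type libraries. *rad30Δ* DSB replicate 3 stood apart from the others. Its TMM factor was 0.873 and 0.205% of its reads lay on mitochondrial genes, against at most 0.0743% in the other 11 libraries, and the part of these features in the results was not tested beyond leaving the library out. Nothing in the labels says whether replicates were separate cultures, so p-values measure the spread between these libraries, which may be technical.

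The paralogs are close enough in sequence to matter for how reads are assigned. *TDH2* (chromosome X, 453683 to 454681, minus strand) and *TDH3* (chromosome VII, 882812 to 883810, minus strand) are 95.8% identical, with 42 differing bases in 999 bases of coding sequence. *TDH1* (chromosome X, 338271 to 339269, plus strand) is 90.2% identical to *TDH2* and 88.9% to *TDH3*. Coordinates and sequences are from RefSeq, assembly R64, which is the sacCer3 build of the deposited counts. The following stretch, coding bases 34 to 123, is where reads tell the TDH genes apart well, and capitals mark the 25 positions at which the 3 genes are not all the same.
TDH1 (chrX:338304-338393, plus strand): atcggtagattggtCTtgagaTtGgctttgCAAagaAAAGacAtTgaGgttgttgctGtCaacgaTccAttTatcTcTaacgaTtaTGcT
TDH2 (chrX:454559-454648, minus strand): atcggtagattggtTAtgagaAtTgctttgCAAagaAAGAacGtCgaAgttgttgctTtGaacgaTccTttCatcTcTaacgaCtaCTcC
TDH3 (chrVII:883688-883777, minus strand): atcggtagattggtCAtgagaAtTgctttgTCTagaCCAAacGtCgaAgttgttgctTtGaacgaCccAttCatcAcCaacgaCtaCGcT
By contrast, the longest run without a difference between *TDH2* and *TDH3* is 173 bases, coding bases 355 to 527, shown as the longest stretch with no base that tells the genes apart. The insert size stated in the study's methods is longer than this run, so a usual read pair reaches beyond it. In *TDH3* it lies at chrVII:883284-883456.
TDH2 (chrX:454155-454327, minus strand): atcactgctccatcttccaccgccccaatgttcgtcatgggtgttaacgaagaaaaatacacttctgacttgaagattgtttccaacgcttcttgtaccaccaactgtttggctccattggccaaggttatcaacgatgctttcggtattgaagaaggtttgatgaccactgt
Of all windows of 50 bases along the coding sequences, 24.4% are identical between *TDH2* and *TDH3*, and 2.82% of windows of 150 bases are. *ENO1* (chromosome VII, 1000927 to 1002240) and *ENO2* (chromosome VIII, 451327 to 452640), both on the plus strand, are 94.8% identical, with 68 differing bases in 1314, a longest shared run of 112 bases and no identical window of 150 bases. Coding bases 155 to 244 show where they part, with the 13 differing bases in capitals.
ENO1 (chrVII:1001081-1001170, plus strand): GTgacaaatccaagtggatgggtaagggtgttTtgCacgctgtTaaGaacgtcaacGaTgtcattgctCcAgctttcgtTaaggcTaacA
ENO2 (chrVIII:451481-451570, plus strand): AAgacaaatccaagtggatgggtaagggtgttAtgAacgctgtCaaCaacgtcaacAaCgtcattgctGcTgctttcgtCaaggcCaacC
The sources used here do not say how reads that matched more than one place were counted, so the split between *TDH2* and *TDH3* and between *ENO1* and *ENO2* is uncertain to that extent.

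*PFK1* lies on chromosome VII (970771 to 973734, minus strand), *PFK2* on chromosome XIII (671887 to 674766, minus strand), *FBA1* on chromosome XI (326408 to 327487, minus strand), *PGK1* on chromosome III (137746 to 138996, plus strand) and *GPM1* on chromosome XI (163642 to 164385, minus strand). The 800 bases before each start codon were searched on both strands for 3 sets of letters. ACCC followed after any 2 bases by ACAT, part of the letters known for Rap1, was found before *PFK2*, *FBA1* and *TDH3*, that is 3 of 10, against 3.28% of 6002 genes. CTTCC, the core known for Gcr1, was found before 9 of 10, all but *TDH3*, against 82.0% of genes. CACGTG, the letters of an E-box, was found before *TDH1*, *TDH2*, *PGK1* and *ENO1*, against 9.0% of genes. The matches of the first kind are shown in capitals with 15 bases on each side, because the genes that carry them are an upper-step subunit, the aldolase and the most abundant dehydrogenase.
PFK2 (chrXIII:675270-675309, minus strand): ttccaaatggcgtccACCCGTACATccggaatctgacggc
FBA1 (chrXI:327968-328007, plus strand): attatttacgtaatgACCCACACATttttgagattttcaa
TDH3 (chrVII:884352-884391, minus strand): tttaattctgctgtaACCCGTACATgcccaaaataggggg
The farthest base of the match lay 528, 505 and 566 bases before the start codon of *PFK2*, *FBA1* and *TDH3*, and the match before *FBA1* was on the strand opposite to the gene. A match is a description of the letters and not a measured binding site.

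Per coding length, the 10 transcripts covered a wide range and kept nearly the same order in the 4 groups. On the scale of CPM per kilobase of coding length, *TDH3* was highest in each group, 1.86 times *FBA1* in *rad30Δ* DSB, 1.89 times *FBA1* in *rad30Δ* G2/M, 1.93 times *ENO2* in WT DSB and 1.90 times *FBA1* in WT G2/M. *FBA1* and *ENO2* followed. Their ranges over libraries overlapped in both *rad30Δ* groups, while *ENO2* was above *FBA1* in all WT DSB libraries and *FBA1* above *ENO2* in all WT G2/M libraries. *TDH2* overlapped with *ENO1* in both G2/M groups and lay 1.85 times above it in *rad30Δ* DSB and 1.52 times above it in WT DSB, without overlap. *PGK1* and *GPM1* came next and overlapped with each other in both DSB groups. *PFK1*, *PFK2* and *TDH1* were the lowest in that order, and *GPM1* lay 4.93 times above *PFK1* in WT DSB and 2.48 times above it in WT G2/M. Among the other neighbours in this order, *ENO2* and *TDH2* overlapped in *rad30Δ* DSB, *ENO1* and *PGK1* overlapped in *rad30Δ* DSB, and *PFK1* and *PFK2* overlapped in *rad30Δ* G2/M.

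**Figure D1:**
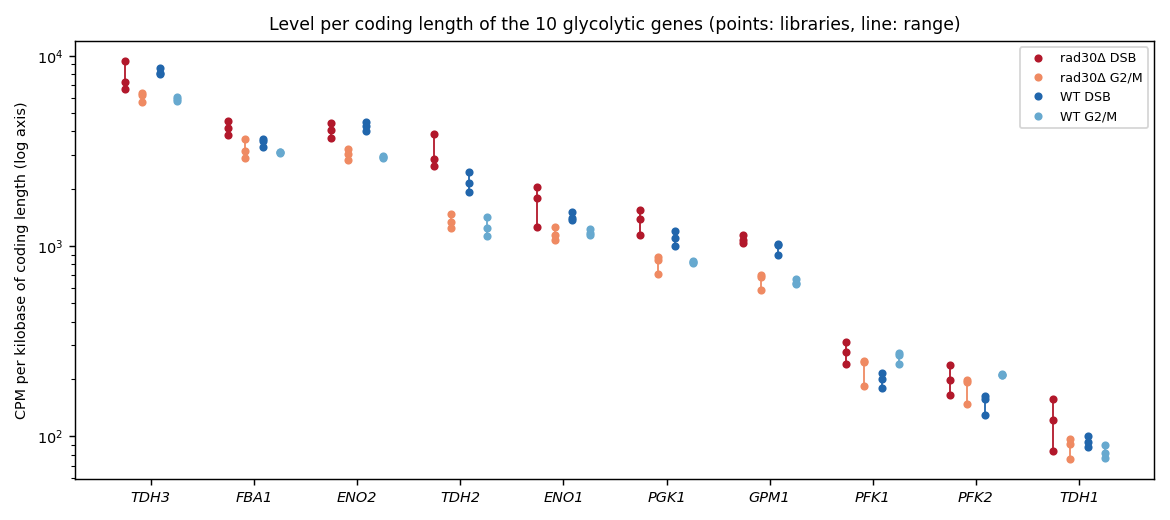
Level per coding length (CPM per kilobase, log axis) of each of the 10 genes, in order of their mean in WT G2/M, with 1 point for each library, a line over the range of the group and 1 colour for each group. *TDH3* is at the top and *TDH1* at the bottom in every group, and *PFK1* and *PFK2* sit below the other genes to their left.

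Together the 10 genes took 2.57% ± 0.17 of all gene reads in *rad30Δ* DSB, 1.97% ± 0.12 in *rad30Δ* G2/M, 2.45% ± 0.11 in WT DSB and 1.96% ± 0.02 in WT G2/M (SD, n = 3 each). In both strains all 3 DSB libraries were above all 3 G2/M libraries, by 0.600 percentage points in *rad30Δ* and 0.487 points in WT (exact permutation test, two-sided, p = 0.1 for each, which is the smallest that 3 against 3 can give). The 2 G2/M groups overlapped, and so did the 2 DSB groups (p = 0.9 and 0.4, exact permutation tests).

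The first question was how the genes responded to galactose and break induction in each strain. In *rad30Δ*, 6 of the 10 genes rose and none fell, against 3.68% of all genes tested that rose and 2.65% that fell, or 6.33% together (edgeR's quasi-likelihood test, Benjamini-Hochberg adjusted p under 0.05). In WT, 5 rose and 1 fell, against 6.07% and 6.29% of all genes, or 12.4% together. *TDH2*, *PGK1*, *GPM1* and *ENO2* rose in both strains, *FBA1* and *ENO1* passed the test in *rad30Δ*, *TDH3* passed it in WT, and *PFK2* fell in WT. The median log2 fold change of the 10 genes was 0.44 in *rad30Δ* and 0.35 in WT, beside 0.00 over all genes tested in each strain. The 3 DSB libraries did not overlap with the 3 G2/M libraries for 6 genes in *rad30Δ*, all higher, against 21.8% of all genes (11.3% higher and 10.5% lower). In WT they did not overlap for 9 genes, 7 higher and 2 lower, against 45.8% of all genes (22.9% in each direction). Without *rad30Δ* DSB replicate 3, 5 of the 10 genes rose in *rad30Δ* and 5 in WT. With only the libraries compared in the fit, 3 rose in *rad30Δ* and 7 in WT. The count in *rad30Δ* was 3 without *rad30Δ* G2/M replicate 3, and the count in WT was 3 without WT G2/M replicate 2 or 3 or WT DSB replicate 1. The shares of all genes above belong to the main fit on all 12 libraries. Those of the other fits are not given here, so the counts of these fits have no share to be set against. CPM are shares of a library's reads, so that more RNA of 1 gene per cell and less RNA of the rest cannot be told apart.

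**Figure D2:**
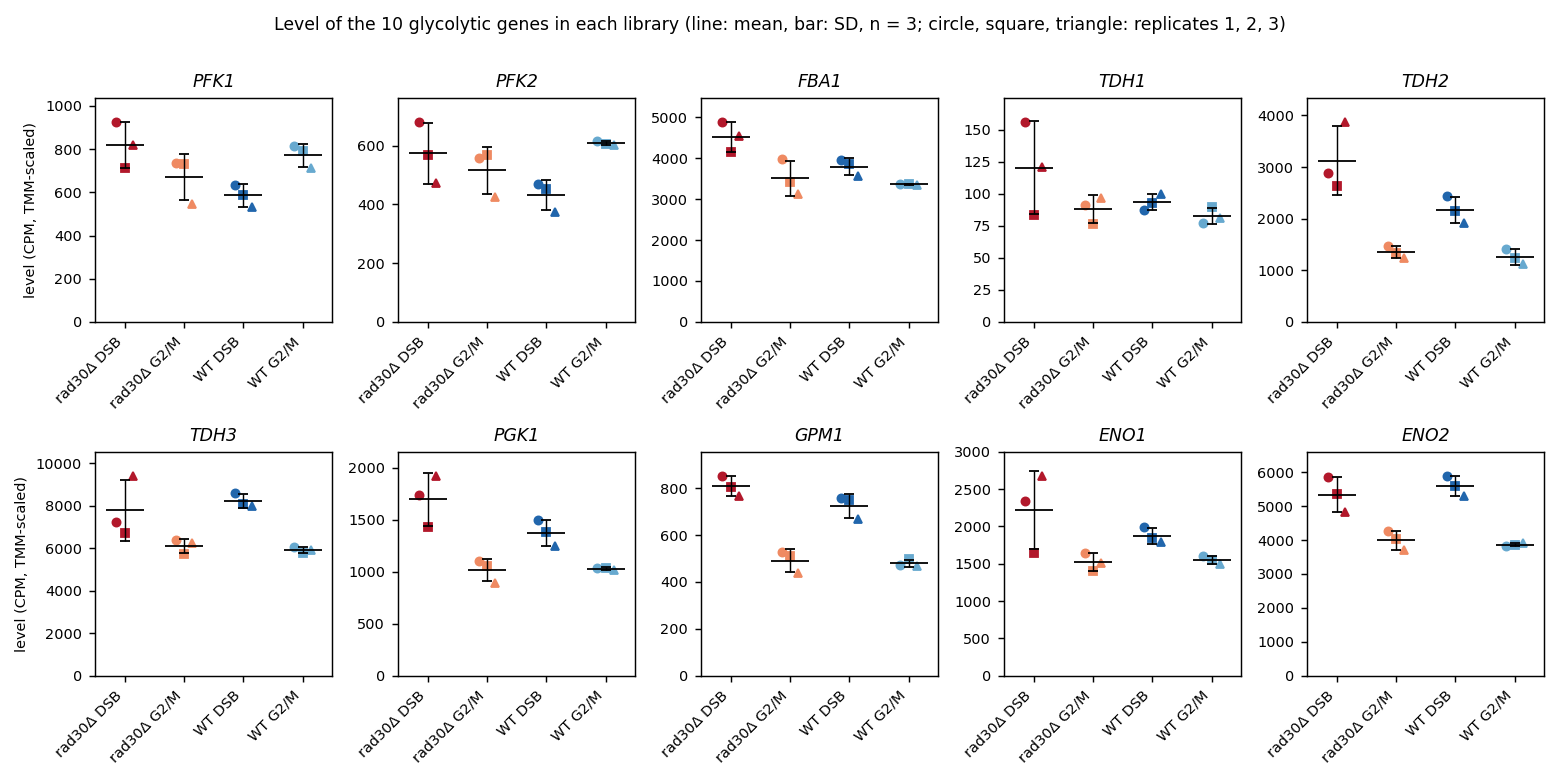
Level of each of the 10 genes in every library (CPM, scaled with TMM factors, axes from 0), with the *rad30Δ* DSB, *rad30Δ* G2/M, WT DSB and WT G2/M groups from left to right, replicates 1, 2 and 3 as circle, square and triangle, the mean as a line and the SD as a bar (n = 3). *TDH2* and *GPM1* show DSB libraries clear of the G2/M libraries in both strains, whereas *PFK1* and *PFK2* are lower in WT DSB than in WT G2/M and overlap between the *rad30Δ* groups.

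The phosphofructokinase subunits behaved unlike the other genes. They are also the longest of the set, with 2964 and 2880 coding bases, against 744 to 1314 for the others. The study reports that break induction favoured short genes over long ones in WT, with no dependence on length in *rad30Δ*. The part of gene length in the values below was not tested. *PFK1*, the α subunit, had 926, 713 and 818 CPM in *rad30Δ* DSB, against 736, 731 and 546 CPM in *rad30Δ* G2/M, and 636, 590 and 533 CPM in WT DSB, against 814, 790 and 713 CPM in WT G2/M. The *rad30Δ* groups overlapped, with a log2 fold change of 0.29 (SE 0.13, adjusted p = 0.199), whereas every WT DSB library was below every WT G2/M library, with −0.40 (SE 0.13, adjusted p = 0.0559). *PFK2*, the β subunit, had 681, 569 and 473 CPM in *rad30Δ* DSB, against 558, 567 and 425 CPM in *rad30Δ* G2/M, and 470, 453 and 374 CPM in WT DSB, against 615, 607 and 602 CPM in WT G2/M. It fell in WT by 0.49 on the log2 scale (SE 0.14, adjusted p = 0.0373) and had a log2 fold change of 0.15 in *rad30Δ* (SE 0.14, adjusted p = 0.555). The WT call for *PFK2* was lost when any 1 of the 6 WT libraries was left out (adjusted p 0.0636 to 0.157). That for *PFK1* was gained without *rad30Δ* G2/M replicate 3 or any 1 of the *rad30Δ* DSB libraries (0.0264 to 0.0413), with library totals in place of TMM (0.0215), with only the WT libraries in the fit (0.000678), with the replicate number as a block (0.0319) and with DESeq2 (0.0281).

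*FBA1*, which cleaves fructose-1,6-bisphosphate, had 4881, 4153 and 4529 CPM in *rad30Δ* DSB, against 3966, 3419 and 3118 CPM in *rad30Δ* G2/M. These groups did not overlap, and the gene rose by 0.37 on the log2 scale (SE 0.09, adjusted p = 0.0347). In WT it had 3952, 3851 and 3558 CPM after break induction, against 3367, 3358 and 3340 CPM in G2/M, a log2 fold change of 0.17 (SE 0.09, adjusted p = 0.233) with groups that did not overlap either. The *rad30Δ* call was lost in 8 of the 12 fits that left out 1 library, those without any WT G2/M library, WT DSB replicate 1 or 2, *rad30Δ* G2/M replicate 2 or 3, or *rad30Δ* DSB replicate 1 (adjusted p 0.0539 to 0.124), with library totals in place of TMM (0.0755) and with only the *rad30Δ* libraries in the fit (0.258). With only the WT libraries, *FBA1* passed the test in WT (0.0261).

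*TDH2* showed the largest fold change among the 10 genes in both strains. The level was 2878, 2625 and 3874 CPM in *rad30Δ* DSB, against 1470, 1330 and 1239 CPM in *rad30Δ* G2/M, and 2436, 2147 and 1923 CPM in WT DSB, against 1419, 1238 and 1124 CPM in WT G2/M. In each strain every DSB library was above every G2/M library. The gene rose by 1.21 on the log2 scale in *rad30Δ* (SE 0.14, adjusted p = 0.000184) and by 0.78 in WT (SE 0.14, adjusted p = 0.00433), and both calls held in every fit that left out 1 library. *TDH3*, the main dehydrogenase of growing cells, had 7236, 6698 and 9414 CPM in *rad30Δ* DSB, against 6378, 5728 and 6226 CPM in *rad30Δ* G2/M. Its highest value was in *rad30Δ* DSB replicate 3, the library with the low TMM factor, and the log2 fold change was 0.35 (SE 0.11, adjusted p = 0.0802, or 0.0108 without *rad30Δ* DSB replicate 2 and 0.0232 with DESeq2). Without replicate 3 of that group it was 0.19 (adjusted p = 0.0952). In WT, *TDH3* had 8574, 8081 and 7997 CPM after break induction, against 6054, 5781 and 5894 CPM in G2/M, and rose by 0.48 (SE 0.11, adjusted p = 0.0143). This call was lost without WT G2/M replicate 2 or 3 or WT DSB replicate 1 (adjusted p 0.0539 to 0.0579). *TDH1*, the isozyme known from stationary-phase cells, was scarce. It had 156, 83.7 and 121 CPM in *rad30Δ* DSB, against 91.2, 76.0 and 97.0 CPM in *rad30Δ* G2/M, and 87.3, 92.8 and 99.9 CPM in WT DSB, against 77.0, 89.8 and 81.1 CPM in WT G2/M. Its groups overlapped in both strains, with log2 fold changes of 0.45 (SE 0.17, adjusted p = 0.145) in *rad30Δ* and 0.18 (SE 0.18, adjusted p = 0.539) in WT. Without *rad30Δ* DSB replicate 2, the lowest library of its group, *TDH1* passed the test in *rad30Δ* (adjusted p = 0.00603).

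*PGK1*, which makes the first ATP of the lower stretch, had 1737, 1426 and 1925 CPM in *rad30Δ* DSB, against 1099, 1057 and 894 CPM in *rad30Δ* G2/M, and 1496, 1383 and 1248 CPM in WT DSB, against 1039, 1031 and 1016 CPM in WT G2/M. The groups did not overlap in either strain, and the gene rose by 0.74 (SE 0.11, adjusted p = 0.00153) in *rad30Δ* and by 0.42 (SE 0.11, adjusted p = 0.0306) in WT on the log2 scale. The *rad30Δ* call held without each library in turn, whereas the WT call was lost without any WT library other than WT DSB replicate 3 (adjusted p 0.0791 to 0.116). A dubious open reading frame, YCR013C, is annotated over *PGK1* and had 208 to 815 reads per library, equal to 3.02% to 11.6% of the *PGK1* reads. By edgeR's quasi-likelihood test, YCR013C had log2 fold changes of 0.65 in *rad30Δ* (adjusted p = 0.229) and 1.16 in WT (adjusted p = 0.0294). The larger estimate was thus in WT, unlike that of *PGK1*. The sources used here do not state whether counting used strand, so its reads and those of *PGK1* cannot be told apart.

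*GPM1*, the mutase that moves the phosphate group of phosphoglycerate, had 855, 804 and 768 CPM in *rad30Δ* DSB, against 526, 511 and 437 CPM in *rad30Δ* G2/M, and 759, 750 and 667 CPM in WT DSB, against 474, 497 and 469 CPM in WT G2/M. Every DSB library was above every G2/M library of its strain. *GPM1* rose by 0.72 in *rad30Δ* (SE 0.08, adjusted p = 0.000180) and by 0.60 in WT (SE 0.08, adjusted p = 0.000803) on the log2 scale, and both calls held in each fit without 1 library.

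The enolases make phosphoenolpyruvate. *ENO2*, the paralog known as the one induced on glucose, had 5851, 5346 and 4833 CPM in *rad30Δ* DSB, against 4260, 4022 and 3704 CPM in *rad30Δ* G2/M, and 5904, 5601 and 5293 CPM in WT DSB, against 3810, 3855 and 3900 CPM in WT G2/M. No groups overlapped within a strain. *ENO2* rose by 0.42 in *rad30Δ* (SE 0.08, adjusted p = 0.0108) and by 0.54 in WT (SE 0.08, adjusted p = 0.00165) on the log2 scale, and the *rad30Δ* call was lost without *rad30Δ* G2/M replicate 3 (adjusted p = 0.0513) and with only the *rad30Δ* libraries in the fit (0.164). *ENO1* had 2337, 1644 and 2682 CPM in *rad30Δ* DSB, against 1647, 1408 and 1503 CPM in *rad30Δ* G2/M. Replicate 2 of the DSB group lay just below the highest G2/M library, so the groups overlapped. The gene passed the test in *rad30Δ* with a log2 fold change of 0.55 (SE 0.14, adjusted p = 0.0346), but this call was lost in 11 of the 12 fits that left out 1 library, all but the one without *rad30Δ* DSB replicate 2 (adjusted p 0.0509 to 0.120), and with only the *rad30Δ* libraries in the fit (0.236). In WT, *ENO1* had 1989, 1843 and 1789 CPM after break induction, against 1608, 1546 and 1500 CPM in G2/M, with a log2 fold change of 0.27 (SE 0.14, adjusted p = 0.212, or 0.0378 without *rad30Δ* DSB replicate 2 and 0.00218 with only the WT libraries in the fit).

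**Figure D3:**
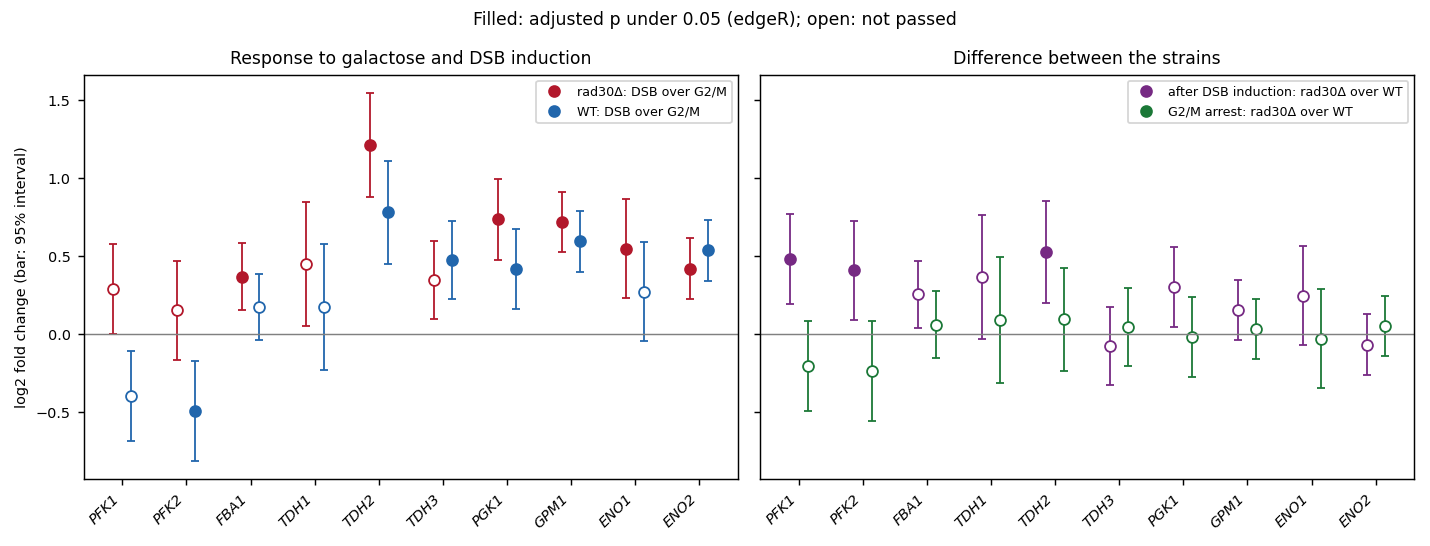
Log2 fold change of each gene with its 95% interval, in the left panel for DSB over G2/M in *rad30Δ* and in WT, and in the right panel for *rad30Δ* over WT after break induction and in G2/M, with filled points where the adjusted p was under 0.05. *TDH2* has the highest fold change in the left panel in both strains (1.21 and 0.78), *PFK1* and *PFK2* are the genes whose estimates have opposite signs in the strains, and no point of the G2/M comparison in the right panel is filled.

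The second question was whether the strains differed before and after break induction. In G2/M none of the 10 genes differed between *rad30Δ* and WT by edgeR's quasi-likelihood test, against 4.71% of all genes that were higher and 6.1% that were lower (10.8% in all). None had an unadjusted p under 0.05 by that test, beside 1491 of all 6490 genes. DESeq2 also called none, and the share of all genes that it called is not given here. The log2 fold changes of *rad30Δ* over WT ran from −0.24 for *PFK2* to 0.10 for *TDH2*. Their 95% intervals differed in width, so the size of difference that could have been missed was not the same for all 10 genes. The interval was −0.55 to 0.08 for *PFK2* and −0.31 to 0.49 for *TDH1*. It was narrower for *GPM1* (−0.16 to 0.23) and *ENO2* (−0.14 to 0.25). *PFK2* was the one gene whose G2/M libraries did not overlap between the strains, lower in *rad30Δ*, against 16.6% of all genes without overlap and lower, 15.7% higher and 32.3% in all.

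After break induction, a comparison that uses the same *rad30Δ* DSB and WT DSB libraries as the responses above, 3 of the 10 genes, *PFK1*, *PFK2* and *TDH2*, were higher in *rad30Δ* than in WT and none was lower, against 11.6% and 11.8% of all genes (23.5% in all). *PFK1* was higher by a log2 fold change of 0.48 (SE 0.13, adjusted p = 0.0153), *TDH2* by 0.53 (SE 0.14, adjusted p = 0.0187) and *PFK2* by 0.41 (SE 0.14, adjusted p = 0.0497). The libraries of the 2 groups did not overlap for 5 genes, *PFK1*, *PFK2*, *FBA1*, *TDH2* and *GPM1*, all higher in *rad30Δ*, against 17.8% of all genes higher, 18.8% lower and 36.7% in all. *FBA1* (log2 fold change 0.26, adjusted p = 0.0661) and *PGK1* (0.30, adjusted p = 0.0704) did not pass, although *FBA1* passed with the replicate number as a block (0.0438) and with DESeq2 (0.0274), and *PGK1* with DESeq2 (0.0382), whereas *TDH3* (−0.08, 95% interval −0.33 to 0.17) and *ENO2* (−0.07, 95% interval −0.26 to 0.13) had estimates near 0. Single libraries and the setting weighed on these calls. The *PFK1* call was lost without WT DSB replicate 3 (adjusted p = 0.0739), that for *TDH2* without WT DSB replicate 2 or 3 (0.0596 and 0.0875), and that for *PFK2* in 10 of 12 fits (0.0570 to 0.194), all but those without *rad30Δ* G2/M replicate 3 or *rad30Δ* DSB replicate 3. With only the 6 DSB libraries in the fit, *PFK1* was the gene still called, with adjusted p of 0.0531 for *TDH2* and 0.104 for *PFK2*. The *PFK2* call was also lost with library totals (0.0937) and without a filter on low counts (0.0503). Without *rad30Δ* DSB replicate 2, *FBA1*, *TDH1*, *PGK1* and *ENO1* also passed the test (0.0353, 0.00655, 0.00976 and 0.00395). Without *rad30Δ* DSB replicate 3, *TDH3* was lower in *rad30Δ* by a log2 fold change of −0.24 (adjusted p = 0.0184). With that library left out, the *TDH2* fold change was 0.34 on the log2 scale (adjusted p = 0.0320). The count of genes called higher was 0 without WT DSB replicate 3, 1 without WT DSB replicate 2 and 6 without *rad30Δ* DSB replicate 2. The shares of all genes called in these other fits are not given here.

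Whether the response itself differed between the strains was tested with the interaction of strain and break induction, which uses the same libraries as the comparisons above. None of the 10 genes passed edgeR's quasi-likelihood test, against 0.0616% of all genes (0% higher and 0.0616% lower). DESeq2 called 1, *PFK1* (adjusted p = 0.0339), and the share of all genes that DESeq2 called is not given here. By edgeR's test, 2 of the 10 genes had an unadjusted p under 0.05, beside 867 of all 6490 genes. These were *PFK1*, with a difference of the log2 fold changes of 0.69 (SE 0.18, 95% interval 0.28 to 1.10, edgeR adjusted p = 0.164), and *PFK2*, with 0.64 (SE 0.20, 95% interval 0.19 to 1.10, edgeR adjusted p = 0.199, or 0.0372 without *rad30Δ* DSB replicate 3). For *TDH2* the difference was 0.43 (SE 0.20, 95% interval −0.03 to 0.90, adjusted p = 0.377). For *GPM1* and *ENO2* it was 0.12 and −0.12 (adjusted p = 0.691 and 0.702).

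The split of reads within each family is a ratio inside a library and does not depend on the scaling. It can depend on the removal of duplicates, which can lower the counts of abundant genes such as *TDH3*, and that part was not tested. *TDH2* took 28.0%, 27.9% and 28.9% of the reads of the 3 TDH genes in *rad30Δ* DSB, against 18.5%, 18.6% and 16.4% in *rad30Δ* G2/M, and 21.9%, 20.8% and 19.2% in WT DSB, against 18.8%, 17.4% and 15.8% in WT G2/M. The *rad30Δ* DSB libraries, including replicate 3, were above all 9 others and lay within about a percentage point of each other. The share was higher after break induction by 10.4 points in *rad30Δ* and by 3.30 points in WT, and after induction it was 7.63 points higher in *rad30Δ* than in WT. In each of these 3 comparisons the libraries did not overlap (exact permutation tests, two-sided, p = 0.1, the smallest possible, and 0.24 adjusted over 24 such tests). *TDH3* took the complement, at 70.6% ± 0.52 in *rad30Δ* DSB, 81.0% ± 1.17 in *rad30Δ* G2/M, 78.5% ± 1.28 in WT DSB and 81.5% ± 1.43 in WT G2/M (SD, n = 3 each), and *TDH1* averaged between 0.894% and 1.17% in the 4 groups.

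In *rad30Δ* the other families showed no shift of shares without overlap after break induction, whereas the *ENO1* share shifted in WT. *ENO1* took 28.5%, 23.5% and 35.7% of the enolase reads in *rad30Δ* DSB, against 27.9%, 25.9% and 28.9% in *rad30Δ* G2/M, so the DSB group enclosed the other. In WT the share was 25.2%, 24.8% and 25.3% after break induction, against 29.7%, 28.6% and 27.8% in G2/M, lower by 3.62 points without overlap (exact permutation p = 0.1). *PFK1* took 58.9% ± 4.02, 56.5% ± 0.35, 57.6% ± 1.11 and 55.9% ± 1.49 of the phosphofructokinase reads in *rad30Δ* DSB, *rad30Δ* G2/M, WT DSB and WT G2/M (SD, n = 3 each), and its groups overlapped in all 4 comparisons.

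**Figure D4:**
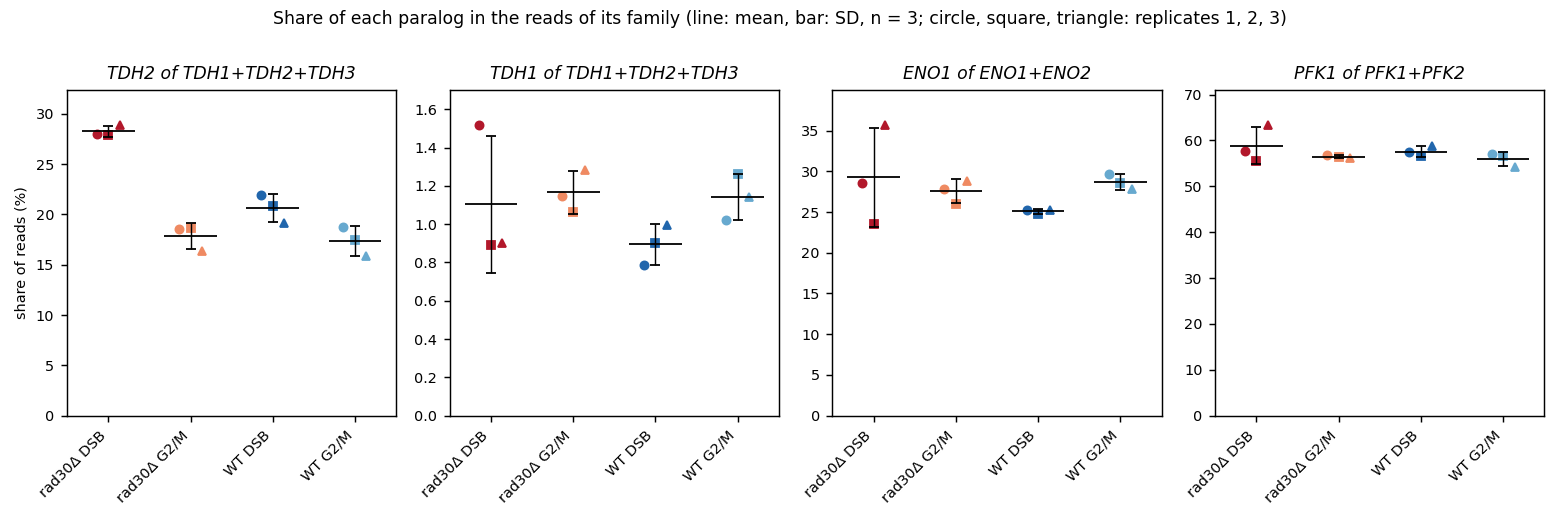
Share of a paralog in the reads of its family (%, axes from 0) in every library, for *TDH2*, *TDH1*, *ENO1* and *PFK1*, with groups, symbols, means and SD as in the plot of levels by library. The *TDH2* share is between 27.9% and 28.9% in the *rad30Δ* DSB libraries and at most 21.9% in all other libraries, while the *ENO1* share spreads from 23.5% to 35.7% among the *rad30Δ* DSB libraries.

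Across the 12 libraries, most of the 10 genes varied together and the phosphofructokinase subunits did not. The correlation of a gene's log2 CPM with the mean of the other 9 genes was 0.98 for *PGK1*, 0.95 for *FBA1*, 0.92 for *TDH2*, 0.90 for *ENO1* and 0.89 for *GPM1*, then 0.77 for *ENO2*, 0.71 for *TDH3*, 0.68 for *TDH1*, 0.30 for *PFK1* and −0.05 for *PFK2*. These are descriptions over 12 libraries that share groups and scaling. Among the 5423 genes that averaged 10 CPM or more, the 5 outside the set most like the mean of the 10 were *COX5A* (r = 0.97), *QCR10* (0.97), *ERG5* (0.94), *SDH2* (0.94) and *STL1* (0.93). *COX5A*, *QCR10* and *SDH2* encode subunits of respiratory complexes, *ERG5* an enzyme of ergosterol synthesis and *STL1* a glycerol transporter.

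The rest of the pathway was read from 32 further genes in 8 lists, of which 31 passed the filter on low counts. After break induction 6 of them rose in *rad30Δ* and none fell, and in WT 3 rose and 3 fell, against the 3.68% and 2.65% of all genes in *rad30Δ* and the 6.07% and 6.29% in WT given above, with median log2 fold changes of 0.17 and 0.13. *PGM2*, the phosphoglucomutase through which galactose carbon reaches glycolysis, rose by 1.22 in *rad30Δ* and by 1.29 in WT on the log2 scale (adjusted p = 0.000187 and 0.000126). *GCR1*, the glycolytic activator, had 152, 156 and 226 CPM in *rad30Δ* DSB, against 94.8, 103 and 114 CPM in *rad30Δ* G2/M, and 174, 159 and 150 CPM in WT DSB, against 109, 107 and 96.8 CPM in WT G2/M, and rose by 0.77 and 0.62 in the 2 strains (adjusted p = 0.00392 and 0.0107). *GPM2*, a paralog of *GPM1*, rose by 0.65 in *rad30Δ* and by 0.69 in WT (adjusted p = 0.0220 and 0.00898). In *rad30Δ* the pyruvate kinase *CDC19* (0.81, adjusted p = 0.0287) and the glycerol branch genes *GPD1* (0.70, adjusted p = 0.0138) and *GPP1* (0.57, adjusted p = 0.00993) rose as well. In WT the hexokinase *HXK1* (−0.71, adjusted p = 0.0143), the minor phosphoglucomutase *PGM1* (−0.32, adjusted p = 0.0379) and *TYE7*, a transcription factor of glycolytic genes (−0.60, adjusted p = 0.0107), fell. *CDC19* had 937, 786 and 1527 CPM in *rad30Δ* DSB, against 678, 655 and 525 CPM in *rad30Δ* G2/M, and its highest value was again in replicate 3.

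Between the strains, the 2 listed enzymes particular to gluconeogenesis, *FBP1* and *PCK1*, stood higher in *rad30Δ* in both states. *FBP1*, fructose-1,6-bisphosphatase, which runs opposite to phosphofructokinase, had 383, 365 and 434 CPM in *rad30Δ* DSB, against 240, 230 and 264 CPM in WT DSB, and 464, 389 and 378 CPM in *rad30Δ* G2/M, against 235, 234 and 228 CPM in WT G2/M. It was higher by a log2 fold change of 0.69 after break induction (adjusted p = 0.000261) and 0.82 in G2/M (adjusted p = 9.46e-05). *PCK1*, phosphoenolpyruvate carboxykinase, was higher by 0.81 (adjusted p = 0.00675) and 0.76 (adjusted p = 0.0169). Of the 31 genes, *PGM1* was also higher in *rad30Δ* after break induction (0.29, adjusted p = 0.0362), and *GPP1* was lower in G2/M (−0.58, adjusted p = 0.00534). After break induction 3 of the 31 were thus higher and 0 lower, against 11.6% and 11.8% of all genes (23.5% in all). In G2/M 2 were higher and 1 lower, against 4.71% and 6.1% (10.8% in all). In either direction the 31 genes were not called more often than all genes. None of the 31 passed the interaction test by edgeR's quasi-likelihood test, and 3 had an unadjusted p under 0.05, beside the 867 of all 6490 genes.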

How the data were processed

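Alignment by the authors was to sacCer3 with HISAT2 after cutadapt trimming; Picard took out duplicates and featureCounts assigned reads to genes. For versions, strand setting and multiply mapped reads, nothing is stated in the sources used here. Removal of duplicates can lower the counts of abundant genes, and its part was not tested. The deposited counts, raw whole numbers per gene, were used as deposited. The authors' comparison tables hold their DESeq2 fold changes, p-values, means of log2 FPKM and gene lengths and were not used. The 6490 genes with 10 or more reads were fitted over all 12 libraries with edgeR 4.0.16 (limma 3.58.1, R 4.3.3): TMM, glmQLFit, glmQLFTest, 4 group means, Benjamini-Hochberg adjustment over all genes, threshold 0.05. Intervals (95%) used the fitted SE and 8 residual degrees of freedom. The script was tested on simulated data. Shares were compared with exact permutation tests (scipy 1.17.1). Alternatives were DESeq2 1.42.0, other size factors, other filters, only the libraries compared, the replicate number as a block, and leaving out each library. No 2 replicates agreed within sampling noise. Same-numbered libraries deviated together in *rad30Δ* (r = 0.19, 0.15 and 0.34) but not in every WT pair (0.04, 0.10 and 0.00) over all genes tested. Over the 5433 genes of higher level every pair was above 0.1 (*rad30Δ* 0.33, 0.27 and 0.42, WT 0.16, 0.23 and 0.11). Libraries of unlike number within a strain reached at most 0.09 over these genes. The study's methods describe taking arrested cells before and after induction, but no label states a shared culture. The design stayed unpaired, and blocked values are given where they change a call. All 10 genes, other pathway genes past the threshold and the 5 most alike genes are named. Genes, lists and motifs were chosen with earlier results of these data known.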

Additional observations from a re-analysis of the deposited data

Results flagged for a closer look

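*PFK1* was flagged for its response to galactose and break induction, whose estimates had opposite signs in the strains. The log2 fold change of DSB over G2/M was 0.29 in *rad30Δ* and −0.40 in WT, with a difference of 0.69 (SE 0.18). All 3 *rad30Δ* DSB libraries were above the mean of the *rad30Δ* G2/M libraries, while all 3 WT DSB libraries were below that of the WT G2/M libraries. This was the rule for the flag, so it gives no further support for a difference. The *rad30Δ* DSB and *rad30Δ* G2/M libraries overlapped. DESeq2's test of the difference passed (adjusted p = 0.0339) and edgeR's quasi-likelihood test of the same difference did not (adjusted p = 0.164, and 0.0628 to 0.416 when each library was left out in turn). The share of all genes that DESeq2 called for this difference is not given here.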

How the results depend on the processing

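Of the 340 member fold changes under other settings, 321 kept their direction and side of the threshold, 8 lost the call, 11 gained one and none changed direction. The count of the 10 genes lower in WT DSB than in WT G2/M was 2 in place of 1 with library totals, with only the libraries compared, with the replicate block and with DESeq2, *PFK1* being the second. The count higher in *rad30Δ* DSB than in *rad30Δ* G2/M was 3 in place of 6 with only the libraries compared, 5 with library totals and 7 with DESeq2, and that in WT was 7 in place of 5 with only the libraries compared. The count higher in *rad30Δ* DSB than in WT DSB was 1 in place of 3 with only the libraries compared, 5 with DESeq2 (*FBA1* and *PGK1* added), 4 with the replicate block (*FBA1* added), and 2 with library totals or without a filter on low counts. The interaction count was 1 in place of 0 with DESeq2. The replicate block changed no other call. The fit on only the libraries compared has no value for the interaction. With each library left out in turn, 533 of 600 member fold changes kept direction and side. The counts then ran from 3 to 6 (higher) and 0 to 2 (lower) for WT DSB against WT G2/M, 3 to 8 (higher) for *rad30Δ* DSB against *rad30Δ* G2/M, 0 to 6 (higher) and 0 to 1 (lower) for *rad30Δ* DSB against WT DSB, and 0 to 1 (higher) for the interaction. Directions changed only for estimates near 0. Between the strains in G2/M, the log2 fold change ran from −0.038 to 0.14 for *FBA1*, −0.018 to 0.11 for *GPM1*, −0.092 to 0.022 for *ENO1* and −0.077 to 0.067 for *PGK1*, and between the strains after break induction from −0.24 to 0.029 for *TDH3*. In percentage points, the differences in shares that changed direction ran, between the strains in G2/M, from −0.0369 to 0.0842 for *TDH1*, −0.255 to 1.24 for *TDH2*, −1.20 to 0.231 for *TDH3*, −0.276 to 1.11 for *PFK1* and −0.0517 to 0.0611 for the 10 genes together. For *rad30Δ* DSB against *rad30Δ* G2/M they ran from −0.270 to 0.0442 for *TDH1* and −1.53 to 4.56 for *ENO1*, and for *rad30Δ* DSB against WT DSB from −0.955 to 2.92 for *PFK1*. A left-out fit leaves 2 libraries in 1 group. The share of all genes called under each of these other fits and settings is not given here. Their counts therefore cannot be set against the shares of the main fit. The causes were not tested.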
